A study of Mus musculus with 8 samples.

Results

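Serpins are a family of proteins built on one fold, and most of them trap and inactivate proteases. The serpin genes were taken as every gene whose array annotation gave 1 symbol of the form Serpin, a clade letter and a number. This gave 53 genes of 22180 on the array, each represented by its probe set with the highest mean signal over the 8 arrays. They fall in 9 clades, of which clade A (19 genes) and clade B (25 genes) are the largest, followed by clades F and I with 2 genes each and clades C, D, E, G and H with 1 each.

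The arrays held RNA from mouse lung cells isolated as club cells, a secretory cell type of the airways. One group was Atgl KO/cTg, mice labelled as knockout for Atgl, with 4 pools made from 16 mice in all. Atgl is Pnpla2, adipose triglyceride lipase, which starts the breakdown of stored triglyceride. The other group was wt/cTg, mice labelled as wild type, with 4 pools made from 14 mice in all. Both groups carried cTg, which the labels do not expand, and no treatment was given. The Atgl KO/cTg mice were aged 44 to 46, 43 to 45, 38 to 43 and 42 to 45 weeks in pools 1 to 4, and the wt/cTg mice 44 to 45, 41 to 48, 42 to 44 and 42 weeks. Each Atgl KO/cTg pool held 4 mice, while wt/cTg pools 2 and 3 held 4 mice and wt/cTg pools 1 and 4 held 3. Every array is thus one pool of mice, and errors describe how pools differ. The study describes its pools as 4 sets of both genotypes, but the labels do not say which pools belong to one set, so any pairing between them is left out of every p-value.

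An inhibitory serpin offers a loop at its surface as bait, and the protease that cuts it is dragged across the molecule and stays bound in an inactive complex. Clade A, C, D, F and G members are mostly secreted and circulate in plasma, where they hold back clotting, complement and neutrophil proteases, while clade B members mostly stay inside cells and guard against proteases that leak from granules or lysosomes. A few serpins inhibit nothing: HSP47 (Serpinh1) folds collagen and PEDF (Serpinf1) is a signalling protein. In the lung the best known serpin is alpha-1 antitrypsin, whose loss in people leaves neutrophil elastase unchecked.

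Pnpla2 itself read 6.99, 7.16, 7.09 and 6.70 on the log2 scale in the Atgl KO/cTg pools, against 8.70, 8.63, 8.62 and 8.86 in the wt/cTg pools, a log2 difference of -1.72 (SE 0.11, limma adjusted p = 0.000116). The club cell list had 12 of 12 members above the level filter explained below, with Scgb1a1 at 12.92 in Atgl KO/cTg, against 12.99 in wt/cTg. Markers of other lung cells were also far above it, among them Sftpc of alveolar type 2 cells (12.53 and 12.93), Dcn of fibroblasts (11.70 and 11.81) and Upk3b of the mesothelium (11.24 and 11.15). Transcripts of several lung cell types were thus present, and no serpin signal can be assigned to club cells alone. Pool wt/cTg 4 stood apart in sex-linked transcripts, with Xist at 3.75 against 9.34 to 10.67 in the other 7 pools. Those 7 were not alike in Y-linked transcripts. Kdm5d read 5.745 to 6.51 in Atgl KO/cTg, against 5.27 to 5.51 in wt/cTg 1 to 3. Eif2s3y read 6.49 to 7.17 in Atgl KO/cTg, against 6.03 to 6.36 in wt/cTg 1 to 3, while the ranges of Uty overlapped.

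Most serpin genes gave low signals. A gene was tested only if its mean over the 8 arrays was above 5.18, the median of all probe sets, and 12 of 53 serpin genes (22.6%) passed this filter, against 13112 of all 22180 genes (59.1%). In clade B 7 of 25 genes passed, in clade A 1 of 19, and Serpind1, Serpinf1, Serping1 and Serpinh1 passed as single members of clades D, F, G and H. No gene of clades C, E and I passed. The last gene inside the filter was Serpinb9b with a mean of 5.64, and the first outside it was Serpina9 with 5.02. A probe set's signal depends on its probes as well as on the transcript, so an order of genes by signal is not an order of transcript amounts.

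**Figure D1:**
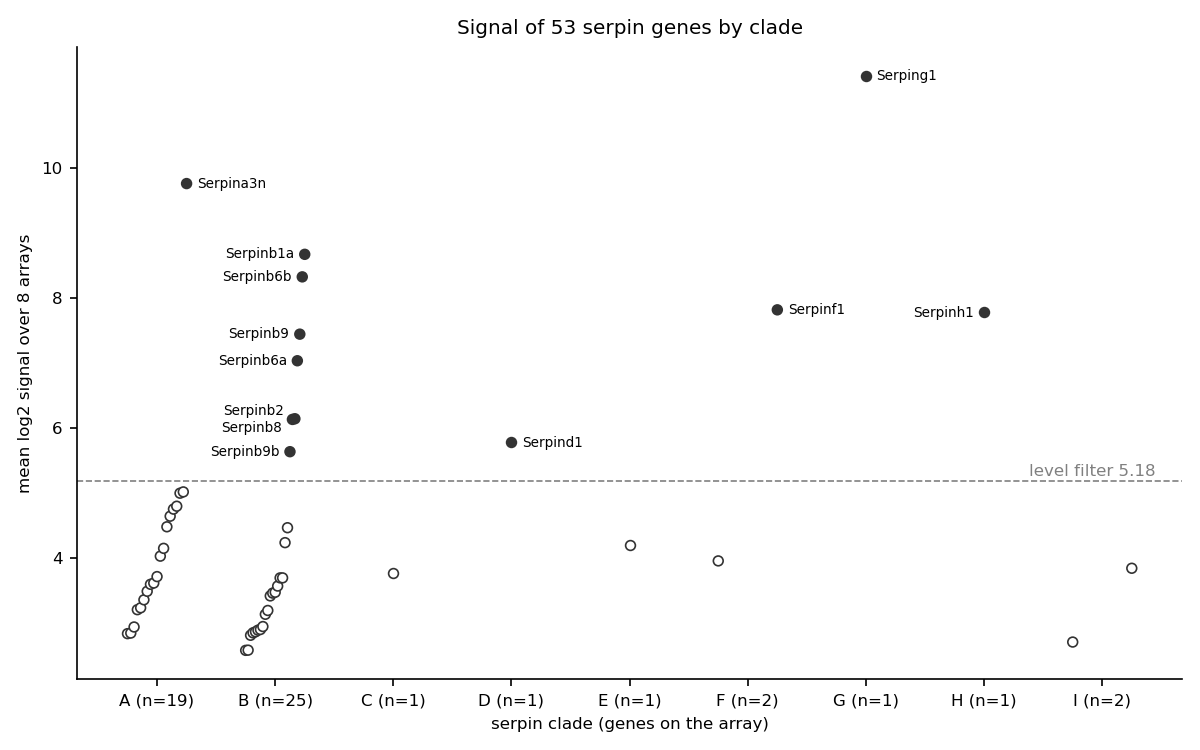
Mean log2 signal over 8 arrays (vertical axis) of 53 serpin genes in 9 clades (horizontal axis), with filled points for the 12 genes above the level filter of 5.18 (dashed line) and open points for the other 41. Serping1 lies highest at 11.41, and all but 1 of the 19 clade A genes lie below the line.

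The order by signal ran from Serping1 (mean 11.41, above 99.4% of all genes) and Serpina3n (9.76) to Serpinb1a (8.67), Serpinb6b (8.32), Serpinf1 (7.82), Serpinh1 (7.78), Serpinb9 (7.44), Serpinb6a (7.03), Serpinb2 (6.14), Serpinb8 (6.13), Serpind1 (5.78) and Serpinb9b (5.64). Serpinf1 and Serpinh1, and likewise Serpinb2 and Serpinb8, were neighbours in this order that differed by less than their spread between arrays. In the RefSeq annotation the serpins lie in 3 long runs of neighbouring genes. The run from Serpina10 to Serpina3n held 18 of the genes and 1 above the filter, the run from Serpinb1a to Serpinb6a held 15 and 5 above it, and the run from Serpinb5 to Serpinb8 held 10 and 2 above it. Within the first run Serpina3n was thus the only gene above the filter, while the other 17 had means of 5.02 or lower.

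Between the genotypes, no serpin gene passed the test. Of the 12 tested, 0 had a limma adjusted p under 0.05, where 13 of 13112 genes did (0.0991%), and the smallest adjusted p among them was 0.398. At an unadjusted p under 0.05 there were 2, Serpinb9 and Serpinh1, both lower in Atgl KO/cTg, which is 16.7% of 12 against 7.95% of all tested genes (4.56% in the lower direction). The same 2 genes had groups that did not overlap, against 4.35% of all tested genes (2.62% in the lower direction). Differences of the 12 ran from -0.36 to 0.14 with a median of -0.07, and 9 lay below 0, against a median of -0.01 with 52.2% below 0 over all tested genes. The sign of the serpin median turned to 0.04 when the number of mice in a pool was a covariate, and to 0.02 over 53 genes without the level filter.

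**Figure D2:**
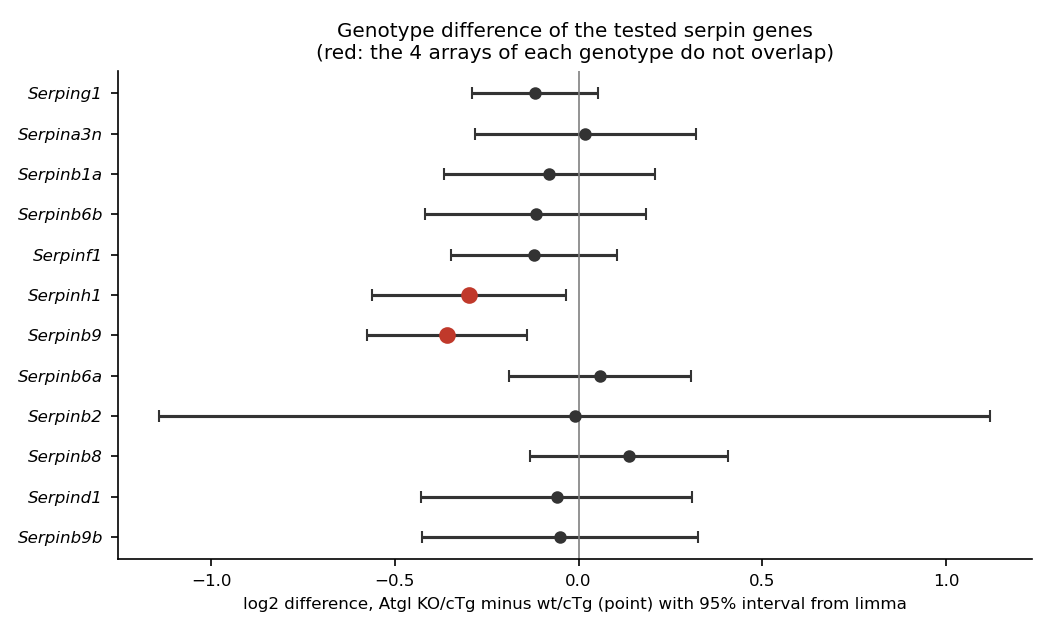
Log2 difference, Atgl KO/cTg minus wt/cTg (points, horizontal axis), with the 95% interval from limma (bars) for the 12 tested serpin genes in order of signal from top to bottom. The intervals of Serpinb9 and Serpinh1 (red) lie below 0, and that of Serpinb2 is the widest, from -1.14 to 1.12.

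The intervals bound what these arrays could have missed. For 11 of the 12 genes the 95% interval of the difference lay within 0.57 of 0 on the log2 scale, a change of at most 1.49-fold, and the farthest ends belonged to Serpinb9 and Serpinh1. For 9 genes the farthest end was 0.43, or 1.34-fold. Serpinb2 was the exception, with an interval that reached 2.21-fold.

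Serping1, the C1 inhibitor that shuts off the first complement proteases and plasma kallikrein, gave the highest serpin signal. It read 11.43, 11.19, 11.32 and 11.47 in the Atgl KO/cTg pools, against 11.50, 11.51, 11.31 and 11.57 in the wt/cTg pools. The groups overlapped, and the whole spread over 8 arrays was 0.38. The log2 difference was -0.12 (95% interval -0.29 to 0.05, limma adjusted p = 0.765). Without pool 3 of wt/cTg the groups did not overlap and the difference was -0.17 (limma adjusted p = 0.64). Its targets were measured beside it in a list of complement C1 and lectin pathway genes, of which 5 of 6 were tested. All 5 lay below 0 (median -0.16) and none passed, with C1ra, a target protease, at -0.19, and the C1q chains C1qc and C1qb, which carry the proteases, at -0.20 and -0.16.

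Serpina3n, an acute-phase serpin that in mice inhibits granzyme B and neutrophil proteases, was the only clade A gene above the filter. It read 9.41, 9.74, 9.94 and 9.97 in Atgl KO/cTg, against 9.89, 9.56, 9.56 and 9.97 in wt/cTg. Both groups held pools near 9.97 and pools near or below 9.6, so they overlapped over nearly their whole range. The difference was 0.02 (95% interval -0.28 to 0.32, limma adjusted p = 0.988), and its sign turned under median centring (-0.012), with age as a covariate (-0.0033) and with any of 4 single pools left out.

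The alpha-1 antitrypsin genes Serpina1a to Serpina1e were all below the filter. They are related mouse copies of the gene whose product in people inhibits neutrophil elastase. Whether each copy inhibits it was not tested here. Serpina1a read 4.98, 4.82, 5.41 and 4.84 in Atgl KO/cTg, against 4.89, 4.86, 5.18 and 5.02 in wt/cTg. Serpina1e read 4.94, 5.24, 4.70 and 4.33 in Atgl KO/cTg, against 4.62, 4.90, 4.40 and 4.90 in wt/cTg. Both sets of groups overlapped, and the values lay near or under the array medians.

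The remaining copies gave signals close to the bottom of the scale. Serpina1b read 3.87, 3.33, 3.81 and 3.398 in Atgl KO/cTg, against 3.26, 3.35, 3.58 and 3.32 in wt/cTg. Serpina1c read 3.35, 3.31, 3.08 and 3.37 in Atgl KO/cTg, against 2.98, 3.07, 3.42 and 3.31 in wt/cTg. Serpina1d read 2.95, 3.12, 2.74 and 2.70 in Atgl KO/cTg, against 2.70, 2.68, 2.67 and 3.16 in wt/cTg. None of these groups separated. The copies are related, so probes may not tell them apart, which was not tested here. A signal below the filter does not show that a transcript is absent. Elane, which encodes neutrophil elastase, was also below the filter (4.50 in Atgl KO/cTg, against 4.67 in wt/cTg).

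Serpinf1 encodes PEDF, a secreted serpin that does not inhibit proteases. The product of Pnpla2 has been reported as a receptor of PEDF, which makes it the serpin with the most direct known link to the knocked-out gene. It read 7.58, 7.80, 7.67 and 7.97 in Atgl KO/cTg, against 7.85, 7.97, 7.76 and 7.92 in wt/cTg. Atgl KO/cTg pools 1 and 3 were the lowest of the 8, but pool 4 was level with the highest wt/cTg pool, and the groups overlapped. The difference was -0.12 (95% interval -0.35 to 0.10, limma adjusted p = 0.815). Its neighbour Serpinf2, alpha-2 antiplasmin, was below the filter, at 4.00 in Atgl KO/cTg, against 3.92 in wt/cTg.

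Among the serpins of clotting, Serpind1, or heparin cofactor II, an inhibitor of thrombin, was above the filter. It read 5.40, 5.76, 5.62 and 6.20 in Atgl KO/cTg, against 5.94, 5.88, 5.55 and 5.85 in wt/cTg. The lowest and the highest pool were both Atgl KO/cTg, and the difference was -0.06 (95% interval -0.43 to 0.31, limma adjusted p = 0.962). Serpinc1, antithrombin, was below the filter, with 3.84, 3.65, 3.86 and 3.55 in Atgl KO/cTg, against 3.38, 4.18, 3.86 and 3.83 in wt/cTg. Serpini1, neuroserpin, an inhibitor of tissue plasminogen activator, was below it too, with 3.91, 3.49, 4.00 and 3.55 in Atgl KO/cTg, against 4.36, 4.03, 3.88 and 3.53 in wt/cTg. The groups of both genes overlapped.

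Serpinh1 encodes HSP47, a chaperone of the endoplasmic reticulum that binds procollagen and is needed for its folding. All Atgl KO/cTg pools were low, with 7.59, 7.64, 7.58 and 7.69, against 8.27, 7.74, 7.74 and 7.96 in the wt/cTg pools. The Atgl KO/cTg pools lay within 0.11 of each other, and the nearest wt/cTg pools were 0.047 above the highest of them. The means were 7.63 ± 0.05 and 7.92 ± 0.25 (SD, n = 4 each), a difference of -0.30 (95% interval -0.56 to -0.03) or 0.814 of the wt/cTg level. The unadjusted limma p was 0.0305 and the adjusted p 0.561, and the exact permutation p was 0.0286, the smallest that 4 against 4 arrays can give. In bulk RNA, fewer cells of a type and less RNA per cell cannot be told apart.

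That difference leaned on single pools. It was -0.18 without pool wt/cTg 1. The unadjusted limma p was above 0.05 without that pool, without wt/cTg 4 and without pool 1 or pool 3 of Atgl KO/cTg. The 2 highest pools, wt/cTg 1 and 4, were those made from 3 mice. With the number of mice as a covariate the difference was -0.11, with the unadjusted limma p again above 0.05, and under median centring the groups overlapped. Pool wt/cTg 4 also stood apart in sex-linked transcripts. With a score of those transcripts as a covariate the unadjusted limma p for Serpinh1 stayed under 0.05.

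Collagens and collagen-folding genes lay on the same side as Serpinh1. Of 12 tested partners 11 lay below 0 (median -0.20, against -0.01 over all tested genes), and none passed over all genes. P4ha1, a subunit of the collagen prolyl hydroxylase, read 7.41, 7.53, 7.73 and 7.49 in Atgl KO/cTg, against 8.08, 7.76, 7.83 and 7.90 in wt/cTg (-0.35, limma adjusted p = 0.433), and its groups did not overlap. Col4a1 was at -0.27 and Col1a2 at -0.36 (limma adjusted p = 0.622 and 0.66). The partner median was -0.13 without pool 1 of wt/cTg and -0.04 with the number of mice as a covariate.

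Fibroblast markers, which share Col1a1, Col1a2 and Col3a1 with that list, were lower as well. All 16 lay below 0 (median -0.33) with none past the threshold, among them Tcf21, a mesenchymal transcription factor (-1.0, limma adjusted p = 0.253), Gsn (-0.35) and Inmt (-0.63). The mean log2 signal of the list was 8.47, 8.55, 8.94 and 8.99 in the Atgl KO/cTg pools, against 9.26, 9.07, 8.88 and 9.24 in the wt/cTg pools. Its 2 highest pools, wt/cTg 1 and 4, were also the 2 highest for Serpinh1. The lower pools did not match in this way. The fibroblast mean ran from 8.47 to 8.99 over the Atgl KO/cTg pools, where Serpinh1 stayed within 0.11. Atgl KO/cTg 3 was lowest for Serpinh1 (7.58), but its fibroblast mean of 8.94 was above that of wt/cTg 3 (8.88). The fibroblast marker of lowest mean signal stood at 5.66, above the filter, and the list median was -0.21 without pool 1 of Atgl KO/cTg.

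Other cell types of the lung wall and vessels lay on that side too, again with none past the threshold. Smooth muscle and pericyte markers were below 0 in 8 of 10 tested genes (median -0.34). Of the 10, 4 were lower at an unadjusted p under 0.05, against 4.56% of all tested genes. Another count, of lower groups that did not overlap, was 2 of 10, against 2.62% of all tested genes. The mean log2 signal of these markers was 6.10, 5.94, 6.38 and 6.23 in the Atgl KO/cTg pools. It was 6.49, 6.21, 6.34 and 6.85 in the wt/cTg pools, so pools 1 and 4 of wt/cTg were again the 2 highest. Atgl KO/cTg 3, the lowest pool for Serpinh1, lay above pools 2 and 3 of wt/cTg here. Endothelial markers were below 0 in 9 of 12 (median -0.27) and alveolar type 1 markers in 10 of 11 (median -0.21). Without pool 4 of wt/cTg the medians were -0.22 for smooth muscle, -0.11 for endothelial and -0.06 for alveolar type 1 markers. Without pool 1 of Atgl KO/cTg the endothelial median was -0.17, and without pool 3 of Atgl KO/cTg the alveolar type 1 median was -0.34. The part of all these markers in the Serpinh1 difference was not tested.

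**Figure D3:**
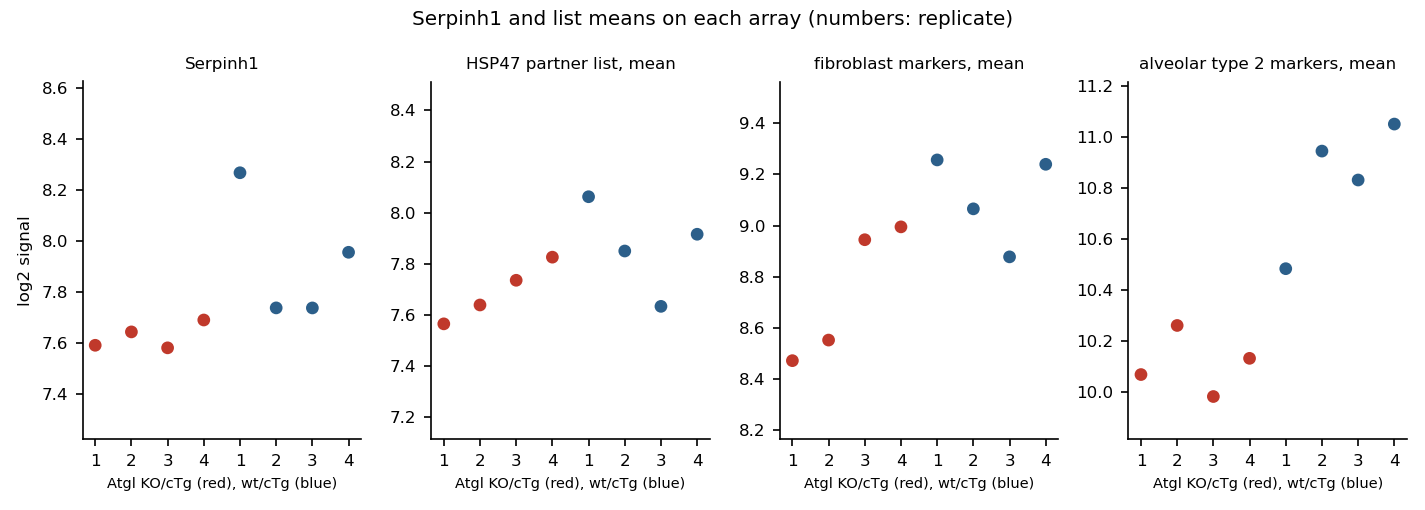
Log2 signal on each of 8 arrays (horizontal axis, replicates 1 to 4 of Atgl KO/cTg in red, then of wt/cTg in blue) for Serpinh1 and for the mean of its 12 collagen-folding partners, 16 fibroblast markers and 15 alveolar type 2 markers. Pool wt/cTg 1 is highest for Serpinh1 (8.27), the partner list (8.06) and the fibroblast list (9.26), while the alveolar type 2 mean is highest in wt/cTg 4 (11.05).

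Serpinb9 is an intracellular serpin that inactivates granzyme B and shields cytotoxic lymphocytes, and cells they touch, from their own granules. The 4 lowest pools were Atgl KO/cTg, with 7.37, 7.39, 7.09 and 7.20, against 7.55, 7.71, 7.58 and 7.65 in the wt/cTg pools. The gap between the groups was 0.155, close to the SD within Atgl KO/cTg. The means were 7.26 ± 0.15 and 7.62 ± 0.07 (SD, n = 4 each), a difference of -0.36 (95% interval -0.57 to -0.14) or 0.780 of the wt/cTg level. The unadjusted limma p was 0.00393 and the adjusted p 0.398 over all genes. The exact permutation p was 0.0286, the value that every gene has when its 4 against 4 arrays do not overlap. Whichever array was left out, the difference stayed between -0.40 and -0.30, and in 19 alternatives its adjusted p ran from 0.198 to 0.934 and its unadjusted p stayed under 0.05.

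Its target was measured beside it. Gzmb read 7.54, 7.38, 7.23 and 6.40 in Atgl KO/cTg, against 7.26, 6.93, 7.70 and 6.24 in wt/cTg, with a difference of 0.10 (limma adjusted p = 0.965). Gzmb was lowest in pool 4 of both genotypes, while Serpinb9 was lowest in Atgl KO/cTg 3 and, among wt/cTg, in pool 1. In the list of granzymes and mast cell proteases 2 of 5 tested genes lay above 0 and 3 below (median -0.03), with Cpa3 at -0.08 and Gzmk at -0.10. Lymphocyte markers (T and NK cell list, 11 tested) had a mean log2 signal of 7.57 to 7.98 in Atgl KO/cTg and 7.41 to 8.12 in wt/cTg, with 5 genes above 0 and 6 below. Dendritic and mast cell markers had 6 of 8 tested genes below 0 and 2 above (median -0.08), and none passed. Cd209a was at -0.65, Xcr1 at -0.54 and Ccr7 at 0.29 (limma adjusted p = 0.182, 0.446 and 0.646). The part of these cells in the Serpinb9 difference was not tested.

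Markers of alveolar type 2 cells were lower in Atgl KO/cTg, with 15 of 15 below 0 (median -0.51) and a mean log2 signal of 9.98 to 10.26 in Atgl KO/cTg and 10.48 to 11.05 in wt/cTg. Of these 15, 6 passed over all genes, where 0.0991% of tested genes did, among them Lamp3 (-1.53), Etv5 (-1.01) and Hc (-1.47), with limma adjusted p from 0.0286 to 0.0294. All 4 Atgl KO/cTg pools were lower for the mean of this list, as they were for Serpinb9. Of single tested genes 2.62% had this feature, a share that gives no measure for the mean of a list. The part of these markers in the Serpinb9 difference was not tested.

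The promoter windows of the 2 separated genes are shown because these were the tested serpins whose groups did not overlap in the deposited values of all 8 arrays. They come from RefSeq (GRCm38.p6) and run from 250 bases before to 50 bases after an annotated start, and 47 of the 53 genes had such an entry. Capitals mark a GC box, GGGCGG or CCGCCC on either strand, a word that 35.7% of 32851 promoter windows of this length hold. Serpinb9 lies at chr13:33004291-33004590 on the plus strand and Serpinh1 at chr7:99353190-99353489 on the minus strand.
Serpinb9: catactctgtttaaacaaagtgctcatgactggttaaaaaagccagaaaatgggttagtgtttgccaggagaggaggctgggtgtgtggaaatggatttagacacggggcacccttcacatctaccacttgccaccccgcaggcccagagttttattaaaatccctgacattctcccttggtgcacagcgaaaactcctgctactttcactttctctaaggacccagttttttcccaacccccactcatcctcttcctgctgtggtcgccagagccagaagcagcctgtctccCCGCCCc
Serpinh1: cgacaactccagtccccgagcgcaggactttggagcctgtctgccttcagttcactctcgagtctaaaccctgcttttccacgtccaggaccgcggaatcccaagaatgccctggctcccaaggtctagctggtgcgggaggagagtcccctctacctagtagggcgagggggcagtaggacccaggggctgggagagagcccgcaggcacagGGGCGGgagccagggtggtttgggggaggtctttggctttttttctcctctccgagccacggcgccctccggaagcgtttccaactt
Each window held 1 GC box, 43 bases after the start in Serpinb9 and 37 bases before it in Serpinh1. Neither window held a TATA box (TATAAA or TTTATA, 13.6% of windows) or the heat shock words GAANNTTC or TTCNNGAA (15.1% of windows), which may overlap each other. A match is a description of the letters.

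Serpinb1a, the main inhibitor of elastase, proteinase 3 and cathepsin G inside neutrophils, had the highest signal of clade B. It read 8.55, 8.87, 8.52 and 8.58 in Atgl KO/cTg, against 9.07, 8.61, 8.46 and 8.70 in wt/cTg. The highest and the lowest pool were both wt/cTg, and the difference was -0.08 (95% interval -0.37 to 0.21, limma adjusted p = 0.927). Its sign turned without wt/cTg replicate 1 (0.04). Of the neutrophil proteases it controls, Prtn3 was tested and stood at 0.29 (limma adjusted p = 0.765), while Elane and Ctsg were below the filter. Neutrophil markers had 8 of 8 tested genes above 0, with a mean log2 signal of 7.94 to 8.93 in Atgl KO/cTg and 7.76 to 8.40 in wt/cTg, and none passed.

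Serpinb6a and Serpinb6b are close relatives, of which Serpinb6a inhibits cathepsin G. Serpinb6b read 8.32, 8.28, 8.09 and 8.36 in Atgl KO/cTg, against 8.58, 7.96, 8.39 and 8.59 in wt/cTg. Serpinb6a read 6.90, 7.22, 6.98 and 7.14 in Atgl KO/cTg, against 6.99, 6.83, 7.01 and 7.18 in wt/cTg. Neither gene separated the groups. The differences were -0.12 for Serpinb6b and 0.06 for Serpinb6a (limma adjusted p = 0.878 and 0.941). Both genes were lowest in wt/cTg 2, and without that pool the groups of Serpinb6b did not overlap and its difference was -0.26 (limma adjusted p = 0.684). A second probe set that names Serpinb6a together with another gene gave -0.21, the opposite sign.

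Serpinb8, which inhibits furin, and Serpinb9b, a relative of Serpinb9, had low signals. Serpinb8 read 5.95, 6.31, 6.12 and 6.42 in Atgl KO/cTg, against 6.05, 6.11, 6.12 and 5.96 in wt/cTg. Its 2 highest values were Atgl KO/cTg pools 2 and 4, and its lowest was Atgl KO/cTg 1. Serpinb9b read 5.80, 5.89, 5.54 and 5.22 in Atgl KO/cTg, against 5.60, 5.59, 6.01 and 5.44 in wt/cTg. The differences were 0.14 for Serpinb8 and -0.05 for Serpinb9b (limma adjusted p = 0.826 and 0.971). Serpinb9b was the only gene with a second probe set of its own, which read lower (3.76 in Atgl KO/cTg, against 3.87 in wt/cTg) and gave -0.11.

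Serpinb2, plasminogen activator inhibitor 2, known from activated macrophages and stressed epithelia, was the most variable serpin. It read 5.62, 7.61, 5.70 and 5.61 in Atgl KO/cTg, against 7.16, 5.40, 6.77 and 5.25 in wt/cTg. A set of 3 pools from both genotypes, Atgl KO/cTg 2 and wt/cTg 1 and 3, were at 6.77 or above, and the other 5 lay at 5.70 or below with none between. The spread within groups (0.97) was larger than for 99.8% of tested genes, while that of the other 11 serpins lay between 0.11 and 0.28. The genotype difference was -0.01 (95% interval -1.14 to 1.12, limma adjusted p = 0.999), and with single arrays removed it spanned -0.50 to 0.33.

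The probe set shared by Serpinb2 and its neighbour Serpinb10 did not show this split. It read 5.80, 5.83, 5.48 and 5.28 in Atgl KO/cTg, against 5.72, 5.84, 6.12 and 5.50 in wt/cTg. Goblet cell markers were highest in Atgl KO/cTg 2 (mean log2 signal 9.61) and lowest in wt/cTg 4 (7.36), the pools where Serpinb2 was highest and lowest, but between these 2 pools the orders differed. Prtn3 was also highest in Atgl KO/cTg 2 (6.55) and wt/cTg 1 (6.06). In wt/cTg 3, where Serpinb2 was high, Prtn3 (5.84) was below its value in Atgl KO/cTg 1 (5.91), where Serpinb2 was low. The mean log2 signal of neutrophil markers was lowest in wt/cTg 3 (7.76). The part of other cells in the Serpinb2 values was not tested.

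**Figure D4:**
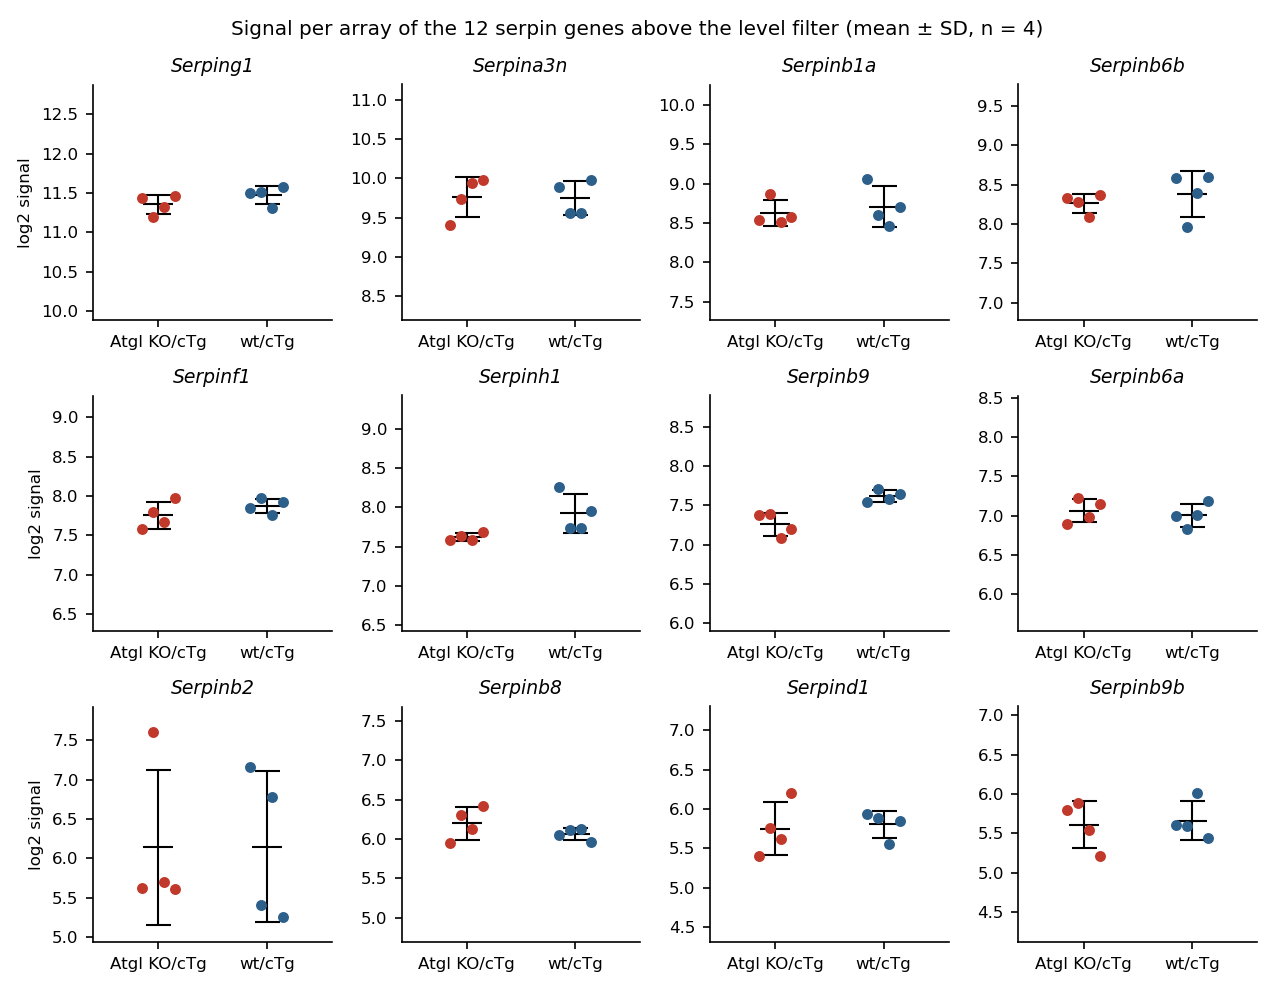
Log2 signal per array (vertical axis, each panel spanning the same 3 units) of the 12 serpin genes above the level filter, with the 4 Atgl KO/cTg pools (red) left of the 4 wt/cTg pools (blue) and the mean ± SD as bars. Serpinh1 and Serpinb9 separate the genotypes, and Serpinb2 splits within both, from 5.25 to 7.61.

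The other 41 serpin genes lay below the filter, with means of 2.58 to 5.02. Among them were the hormone carriers Serpina6 and Serpina7, the protein Z-dependent inhibitor Serpina10, vaspin (Serpina12), maspin (Serpinb5) and most of the mouse-expanded Serpinb6, Serpinb9 and Serpina3 copies. Serpinb3a, a relative of the squamous cell carcinoma antigens in people, read 2.54, 2.66, 2.49 and 2.62 in Atgl KO/cTg, against 2.52, 2.54, 2.57 and 2.72 in wt/cTg, the lowest mean of all. Serpinb3c read 2.65, 2.60, 2.56 and 2.56 in Atgl KO/cTg, against 2.52, 2.56, 2.52 and 2.73 in wt/cTg. Serpinb3d read 2.88, 2.77, 2.81 and 3.15 in Atgl KO/cTg, against 2.73, 2.60, 2.83 and 2.75 in wt/cTg. These values sit near the floor of the array, which was 1.85.

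In a fit of all 22180 genes without the filter, 4 of the 41 had an unadjusted p under 0.05, all higher in Atgl KO/cTg, and none had an adjusted p below 0.558. They were Serpinb6e, Serpinb1b, Serpinb1c and Serpinb11, named after their values were seen. Serpinb6e read 3.60, 3.60, 3.79 and 3.75 in Atgl KO/cTg, against 2.98, 3.26, 3.29 and 3.54 in wt/cTg. Serpinb1b read 3.87, 4.07, 3.61 and 3.74 in Atgl KO/cTg, against 3.60, 3.59, 3.60 and 3.49 in wt/cTg. The groups of these 2 genes did not overlap, by margins of 0.062 and 0.0082, while those of Serpinb1c and Serpinb11 did. Of all genes below the filter 4.72% had an unadjusted p under 0.05 and 3.05% did not overlap.

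The protease lists set beside the serpins did not move as one group. Whether each listed protease is a target of a serpin was not tested. Membrane and kallikrein-type serine proteases of epithelia, which process channels, growth factors and viral proteins at the airway surface, lay above 0 in 9 of 9 tested genes (median 0.27), with 6 at an unadjusted p under 0.05 (3.39% of all tested genes in that direction), 4 with groups that did not overlap (1.74%) and none past the threshold over all genes. St14, or matriptase, read 8.04, 8.60, 8.20 and 8.36 in Atgl KO/cTg, against 7.95, 8.01, 7.74 and 7.77 in wt/cTg (0.43, limma adjusted p = 0.399). Tmprss2 read 8.46, 8.57, 8.59 and 8.81 in Atgl KO/cTg, against 8.08, 8.33, 8.41 and 8.30 in wt/cTg (0.33, limma adjusted p = 0.446). Prss8, or prostasin, was at 0.20 (limma adjusted p = 0.553). The groups of these 3 genes did not overlap. The list median stayed between 0.22 and 0.32 whichever array was left out.

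Markers of airway epithelial cells lay on the same side as these proteases, with none past the threshold over all genes. Goblet cell markers were above 0 in 12 of 12 tested genes (median 0.58). Of the 12, 7 were higher at an unadjusted p under 0.05, against 3.39% of all tested genes. The mean log2 signal of the goblet list was 8.55 to 9.61 in Atgl KO/cTg, against 7.36 to 8.75 in wt/cTg. Ciliated cell markers were above 0 in 11 of 12 (median 0.21) and club cell markers in 9 of 12 (median 0.11). The goblet median was 0.37 without pool 4 of wt/cTg, the ciliated median 0.06 without pool 1 of wt/cTg, and the club median 0.07 without pool 1 or pool 4 of Atgl KO/cTg. The part of these cells in the protease differences was not tested.

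The other lists, which hold receptors and cofactors as well as proteases, had fewer such genes. In the plasminogen system 1 of 4 tested genes lay above 0, Plaur, the urokinase receptor, which read 8.93, 9.27, 9.002 and 9.13 in Atgl KO/cTg, against 8.77, 8.36, 8.69 and 8.74 in wt/cTg (0.44, limma adjusted p = 0.314). Its groups did not overlap. Plat and Plgrkt were at -0.20 and -0.07. Of the clotting and contact genes 3 of 7 lay above 0, with the thrombin receptor F2r at -0.36 (limma adjusted p = 0.413), Thbd at -0.32 and F7 at 0.24. Of the lysosomal cysteine proteases 4 of 7 lay above 0, with Ctsk at 0.79 (limma adjusted p = 0.293), Ctsh at -0.20 and Ctsz at 0.17.

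Among receptors and cofactors that clear or assist serpins, 7 of 10 lay below 0 (median -0.11) and none passed. Vldlr, a lipoprotein receptor family member that takes up serpin-protease complexes, read 5.49, 5.55, 5.93 and 5.83 in Atgl KO/cTg, against 6.35, 6.46, 6.05 and 6.57 in wt/cTg (-0.65, limma adjusted p = 0.253). Lrp2, or megalin, was at -0.41 and Proz, the cofactor of Serpina10, at -0.36 (limma adjusted p = 0.435 and 0.564). The groups of these 3 genes of the 10 did not overlap, against 2.62% of all tested genes in the lower direction. Lrp1, the main clearance receptor, was at -0.002 (limma adjusted p = 0.999). The list median was -0.03 without pool 1 of Atgl KO/cTg and -0.17 without pool 3 of wt/cTg.

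**Figure D5:**
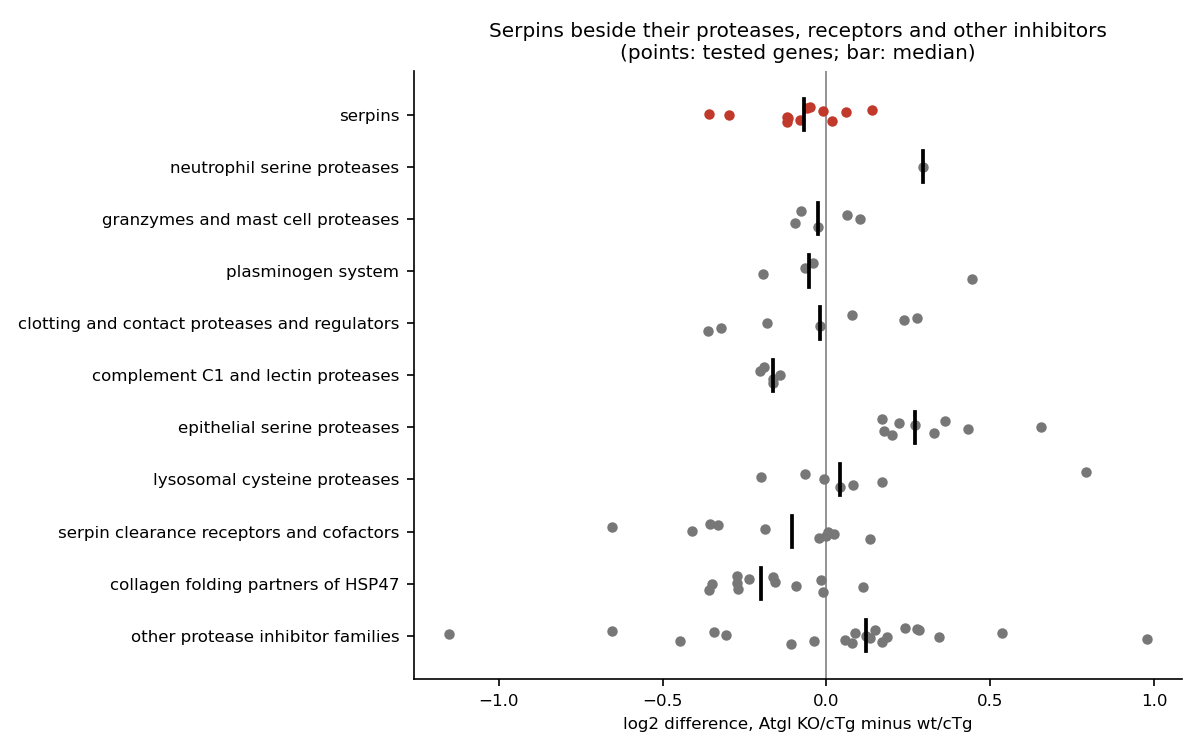
Log2 difference, Atgl KO/cTg minus wt/cTg (horizontal axis), of tested serpin genes (red) and of tested genes in 10 lists of proteases, receptors, collagen-folding partners and other inhibitors (grey), with the median of each as a bar. The serpins span -0.36 to 0.14, the epithelial serine proteases all lie above 0, and the other protease inhibitors span -1.15 to 0.98.

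Protease inhibitors of other families were set beside the serpins. Of 29 such genes 21 were tested, 14 above 0 and 7 below (median 0.12), and 1 rose and 1 fell over all genes, where 0 of 12 serpins did either. Wfdc21, a WAP domain protein, rose by 0.98 (limma adjusted p = 0.0294) and Itih4, an inter-alpha-trypsin inhibitor heavy chain, fell by 1.15 (limma adjusted p = 0.0477). Spink5 was at -0.66 (limma adjusted p = 0.398). In that set 9 of 21 genes (42.9%) had an unadjusted p under 0.05 and 7 (33.3%) had groups that did not overlap, against 2 of 12 serpins (16.7%) for both and against 7.95% and 4.35% of all tested genes. Both sets were chosen with earlier results of these data known, so the shares are a description. Whether the shares differ was not tested.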

How the data were processed

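The data were 8 arrays, 4 Atgl KO/cTg and 4 wt/cTg, grouped by the genotype label. RNA was amplified and labelled with biotin, per the labels' protocols. The deposited table holds log2 signals for 41345 probe sets, taken without further scaling. That they are log2 follows from their range (1.85 to 13.54, array medians 5.12 to 5.24). The sources used here do not state the software, normalization or background correction. The number of arrays limits the precision. No batch or scan data were used here, so none could be set against genotype.

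Names came from 23521 probe sets with 1 symbol (1814 had several, 16010 none). RefSeq (GRCm38.p6) gave the same symbol for 53 of 53 serpins. Genes with a mean above 5.18 were tested with limma 3.58.1 in R 4.3.3 (eBayes with trend, two-sided, Benjamini-Hochberg over 13112 genes, threshold 0.05), beside two-sided exact permutation over 70 arrangements. The steps were tested on simulated data.

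The serpin genes and all lists were chosen with earlier results of these data known. Values per array were given for the 12 serpins of highest signal, all tested ones and a fixed set of known serpins, and up to 3 genes a list, those past the threshold first and then by smallest p. Scgb1a1, Sftpc, Dcn, Upk3b, Elane, Ctsg, Lrp1, Xist, Kdm5d, Eif2s3y, Uty and further low serpins were named outside that rule. Alternatives covered filter, variance prior, scaling, weights, probe sets, age, pool size, a score of sex-linked transcripts and each array left out.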

Additional observations from a re-analysis of the deposited data

Results flagged for a closer look

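Of 106 groups of 4 pools (53 serpin genes in both genotypes), 7 had a pool whose gap to the next one took up more of the group's range than Dixon's 95% critical value for 4 samples, where chance flags about 1 in 20 groups. Serpinb2 in Atgl KO/cTg was the only one above the level filter, with replicate 2 at 7.61 and the others at 5.61 to 5.70 (gap share 0.954). The remaining 6 lay below the filter, where values are near the floor. In Atgl KO/cTg replicate 2 was high for Serpina9 (5.19, gap share 0.854) and Serpina3b (3.56, 0.914). In wt/cTg replicate 4 was low for Serpinb1b (3.49, 0.932) and high for Serpina1d (3.16, 0.937), replicate 3 was low for Serpinb9d (2.53, 0.885) and replicate 1 was low for Serpini2 (2.49, 0.962). Atgl KO/cTg replicate 2 was thus the high pool in 3 of the 7, and it was also 1 of the 2 ends of the first principal component of all probe sets, with Atgl KO/cTg replicate 1 at the other end.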

How the results depend on the processing

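No paired analysis was possible because the labels do not say which pools form the 4 sets the study describes. The count of 0 serpins past the adjusted threshold held in 20 alternatives, adjusted p under 0.1 included, and Pnpla2 passed in 19 refits (-1.81 to -1.62). The 2 serpins at an unadjusted p under 0.05 became 6 without the level filter, 1 with the number of mice as a covariate and 1 without both ends of the first principal component, Atgl KO/cTg replicates 1 and 2, an alternative added after the data were seen. The count was 1 without pool 1 or pool 3 of Atgl KO/cTg and without pool 1 or pool 4 of wt/cTg, and 3 without pool 2 (Serpinb6b added) or pool 3 (Serping1 added) of wt/cTg, a range of 1 to 3. Serpins with groups that did not overlap numbered 4 without the filter, 1 under median centring and 2 to 3 with an array left out. The serpin median of -0.07 ran from -0.13 (without wt/cTg replicate 3 or Atgl KO/cTg replicate 2) to -0.03 (without wt/cTg replicate 1). Signs turned only in genes with intervals across 0: Serpina3n under median centring (-0.012) and with age (-0.0033), Serpinb2 with age (0.031) and pool size (0.048), Serpinb1a (0.10), Serpinb6b (0.090) and Serpind1 (0.030) with pool size, and Serpind1 without both end arrays (0.11). With each array left out the ranges were -0.051 to 0.14 for Serpina3n, -0.16 to 0.040 for Serpinb1a, -0.50 to 0.33 for Serpinb2, -0.14 to 0.081 for Serpinb9b and -0.21 to 0.056 for Serpind1. Medians of the collagen-folding and fibroblast lists were -0.07 and -0.13 without both end arrays, and the complement C1 median was -0.07 without wt/cTg replicate 3. Pool size was 4 in every Atgl KO/cTg pool, so its effect was estimated from the wt/cTg pools alone. The cause of these shifts was not tested.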
